A study of Saccharomyces cerevisiae with 6 samples.

Results

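Counts for the noncoding RNAs at the centre of several yeast ribonucleoproteins were taken from 6 poly(A)-selected RNA-seq libraries of budding yeast, 3 from aged cells and 3 from young cells. The rule named 10 RNAs: the telomerase RNA TLC1, the signal recognition particle RNA SCR1, the ribonuclease RNAs RPR1 and NME1, the spliceosomal RNAs SNR19, LSR1, SNR14, SNR7 and SNR6, and the long noncoding RNA ICR1. Of the 10 names, 9 had at least 1 row in the table of 7127 features, and these 9 filled 10 rows because SNR7 is listed in a long and a short form. TLC1 was not analysed here. The symbol column carried the rule's name for only 3 of the 9, since the trailing number of 11 RNA symbols in it was raised by 1 relative to the identifier column, and 5 of those 11 were members. Members were therefore taken by identifier. One of the altered symbols, that of RPR1, coincided with the real gene RPR2, so that 2 rows carried the symbol RPR2.

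All libraries came from 1 strain, CGY4.51 of genotype MAT@, grown in synthetic complete medium. Aged cells had spent 24 h in ministat aging devices, which hold mother cells while a flow of medium carries their daughters away, and young cells came from cultures in exponential growth. Each group had 3 biological replicates that share batch numbers. Age and culture system cannot be told apart in this design, and in bulk RNA fewer cells holding an RNA and less RNA per cell cannot be told apart either. The aged libraries held 29230292 to 41650202 estimated counts and the young libraries 30140666 to 35102213. Expression markers of alpha cells summed to 3389 to 3718 CPM (counts scaled to library size and composition) in aged libraries and 4386 to 5375 CPM in young libraries, while markers of a cells summed to 35.8 to 38.7 CPM in aged libraries and 31.7 to 38.2 CPM in young libraries. Daughter-specific genes summed to 1357 to 1493 CPM in aged libraries and 1148 to 1226 CPM in young libraries. Of these 10 genes 6 were higher and 1 lower in aged cells. Of the 4 alpha-cell markers 1 was higher and 2 lower, and of the 6 a-cell markers 3 were higher and 0 lower. Over all tested features 32.7% were higher and 30.8% lower. The part of daughters in the results was not tested.

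The signal recognition particle binds the signal sequence of a nascent secretory protein and brings its ribosome to the endoplasmic reticulum. RNase P trims the 5′ leader of precursor tRNAs, and its relative RNase MRP cuts the precursor of ribosomal RNA. In the spliceosome, U1 pairs with the 5′ splice site and U2 with the branch site, U4 arrives paired with U6 and holds it inactive, and U5 keeps the exon ends aligned for ligation. The mature forms of most of these RNAs end without a poly(A) tail, so poly(A) selection favours the fraction that carries A-rich ends or stretches. Polyadenylated copies arise among other ways when the TRAMP complex tags an RNA for the nuclear exosome. ICR1 differs from the others in this respect, being a long RNA polymerase II transcript that runs across the promoter of the flocculin gene FLO11. The levels given here are thus of RNA that was captured and counted, not of the total pool of each RNA.

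The bases that carry out these pairings are shown first, because they define the role of each spliceosomal RNA. Sequences are from RefSeq (R64), written 5′ to 3′ along the RNA with T for U, and capitals mark the part named. In U1, from SNR19 (chrXIV:230613-230672, minus strand), capitals mark the bases that pair with the 5′ splice site. In U2, from LSR1 (chrII:681803-681862, minus strand), they mark the bases that pair with the branch site. In U5, from the long form of SNR7 (chrVII:939542-939610, minus strand), they mark loop 1, which contacts the exons.
SNR19 (U1), bases 1 to 60: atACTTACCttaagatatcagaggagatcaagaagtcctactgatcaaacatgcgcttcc
LSR1 (U2), bases 1 to 60: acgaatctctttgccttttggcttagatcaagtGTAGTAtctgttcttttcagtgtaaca
SNR7 (U5), bases 63 to 131: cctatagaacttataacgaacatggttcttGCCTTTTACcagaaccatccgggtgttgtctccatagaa

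The U4 and U6 RNAs are shown whole because they pair with each other. In U6 (SNR6, chrXII:366235-366346, plus strand) the first capitals mark the ACAGAGA box, which meets the 5′ splice site after U1 leaves, and the second mark bases 70 to 80. In U4 (SNR14, chrV:167427-167586, minus strand) capitals mark bases 1 to 11, which are complementary to bases 70 to 80 of U6 in a run of 11.
SNR6 (U6), whole: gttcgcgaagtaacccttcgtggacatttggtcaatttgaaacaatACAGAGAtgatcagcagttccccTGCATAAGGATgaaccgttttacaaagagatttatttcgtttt
SNR14 (U4), whole: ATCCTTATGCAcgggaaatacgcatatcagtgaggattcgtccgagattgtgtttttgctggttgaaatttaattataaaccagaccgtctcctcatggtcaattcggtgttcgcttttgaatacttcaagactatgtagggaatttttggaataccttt
The 3′ end of the long form of SNR7 (chrVII:939459-939528, minus strand) is shown because the short form lacks its last 35 bases, in capitals, and only reads that reach them can tell the forms apart.
SNR7 (U5), bases 145 to 214: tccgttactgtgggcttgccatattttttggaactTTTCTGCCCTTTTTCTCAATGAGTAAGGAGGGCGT

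These letters, searched on the RNA strand, were matched against 125 annotated RNA genes other than tRNA and rRNA genes. ACTTACC of U1 was in 3 of them (2.4%), GTAGTA of U2 in 8 (6.4%), ACAGAGA of U6 in 7 (5.6%) and GCCTTTTAC of U5 in 2 (1.6%), which were the 2 forms of SNR7. A match is a description of the sequence and not of a function. The longest genomic run of A within each RNA was also taken as a description, and whether selection acted on such runs was not tested. It was 8 bases in ICR1, 7 in LSR1, 5 in NME1 and SNR19 and 3 in RPR1, SCR1, SNR14, SNR6 and both forms of SNR7. The median over 6035 tested features with a sequence was 6, and that over 76 snoRNA genes was 4.

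For 6755 features that passed the filter on low counts, aged and young libraries were compared with edgeR (quasi-likelihood test). A feature was called when its p-value, adjusted over all of them, was under 0.05. All 10 rows passed the filter. Counting SNR7 once, by its long-form row, 3 of the 9 RNAs were higher in aged cells (SCR1, SNR19 and ICR1), 4 were lower (NME1, SNR14, SNR7 and SNR6) and 2 were not called (RPR1 and LSR1). Of all features tested, 32.7% were called higher and 30.8% lower, so calls of this number are not in themselves a result about these RNAs. Their median log2 fold change was 0.043, against 0.025 over all tested features. In 7 of the 9 the aged and young libraries did not overlap, and this held for 70.1% of all tested features, so it is no result about these RNAs either. Summed over the 10 rows with TMM scaling, the level was 85.4 ± 11.7 CPM in aged libraries and 81.3 ± 7.19 CPM in young libraries (SD, n = 3 each). With this scaling the difference was within the spread between replicates (two-sided exact permutation test, p = 0.8, where 0.1 is the smallest p the design allows). The sum was not taken with total counts only, where 5 members were called higher and 2 lower. The members moved in both directions, and each is described in turn.

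**Figure D1:**
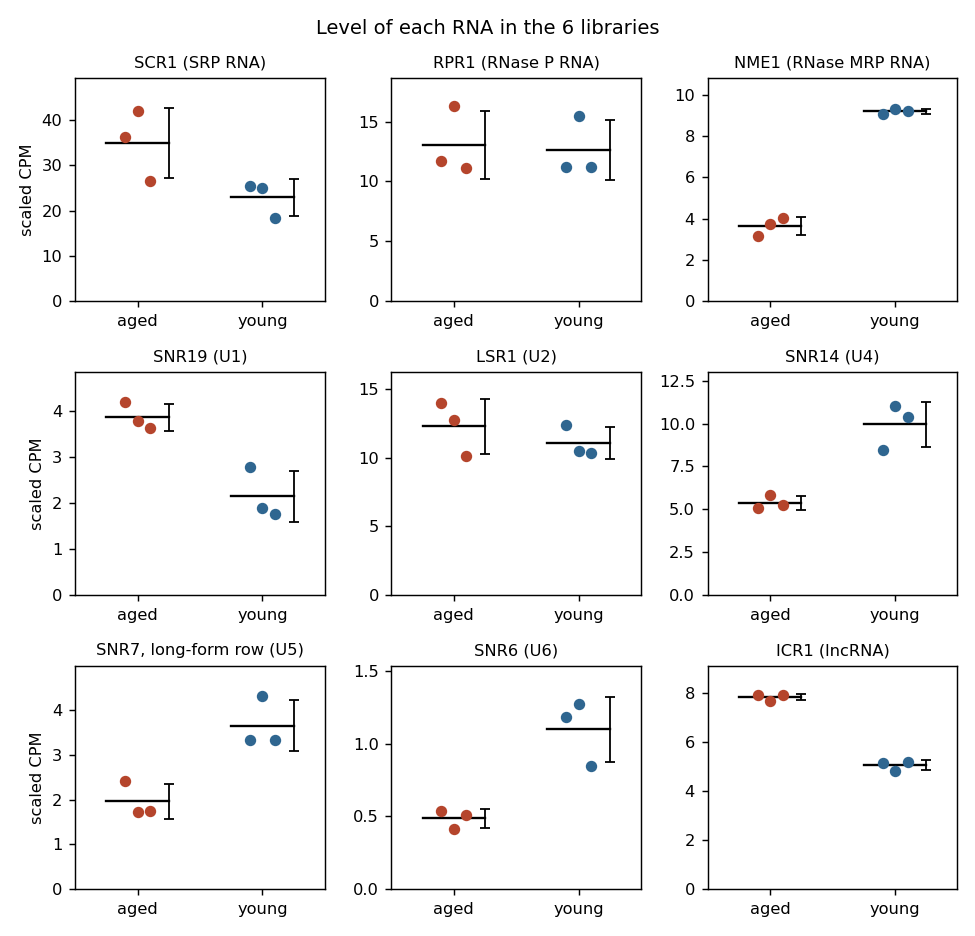
Level of each RNA in scaled CPM (vertical axes, each from 0) in the 3 aged (red) and 3 young (blue) libraries; horizontal lines are means and error bars SDs. SCR1, SNR19 and ICR1 lie higher in every aged library than in any young library, NME1, SNR14, SNR7 and SNR6 lie lower, and RPR1 and LSR1 overlap.

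SCR1 (chrV:441987-442508, plus strand, 522 nt) is the RNA of the signal recognition particle and is made by RNA polymerase III. It stood at 36.3, 41.9 and 26.6 CPM in aged libraries and 25.4, 25.1 and 18.3 CPM in young libraries. The lowest aged library was only just above the highest young library, and in both groups replicate 3 was the lowest. The means were 35 ± 7.73 CPM in aged cells and 22.9 ± 4.01 CPM in young cells (SD, n = 3 each). SCR1 rose 1.52-fold, a log2 fold change of 0.61 (95% confidence interval 0.23 to 0.98, SE 0.17, adjusted p = 0.00925 by edgeR). It rose in each batch, with log2 ratios of 0.52, 0.74 and 0.54 between libraries of the same number. With 500 to 1845 counts per library, SCR1 was the most counted of these RNAs.

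Genes of its protein partners were counted next. The counts of this list and of the later ones stand beside 32.7% higher and 30.8% lower over all tested features. Of 8 genes for subunits of the particle and its receptor, 5 fell, 1 rose and 2 were not called, with a median log2 fold change of −0.63. With total counts only, 4 fell and 3 rose. SRP21, which encodes a subunit of the Alu domain, was at 249 ± 32.8 CPM in aged cells and 779 ± 207 CPM in young cells (log2 fold change −1.64, SE 0.17, adjusted p = 3.11e-05 by edgeR). The 1 gene that rose was SRP54, which encodes the GTPase that binds signal sequences, at 136 ± 7.18 CPM in aged cells and 102 ± 13.7 CPM in young cells (log2 fold change 0.41, adjusted p = 0.00445 by edgeR).

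Of the 2 related ribonuclease RNAs, NME1 fell and RPR1 was not called, and the difference between them was not tested. RPR1 (chrV:117667-118035, minus strand, 369 nt), the catalytic RNA of RNase P and a polymerase III transcript, was at 11.7, 16.3 and 11.1 CPM in aged libraries and 11.2, 15.5 and 11.2 CPM in young libraries. The groups overlapped fully, and replicate 2 was the highest in both, so that the log2 ratios within batches were 0.064, 0.07 and −0.018. The log2 fold change was 0.043 (95% confidence interval −0.34 to 0.42, SE 0.17, adjusted p = 0.838 by edgeR), an interval that allows a change of either sign.

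NME1 (chrXIV:585587-585926, plus strand, 340 nt), the RNA of RNase MRP, fell. It was at 3.18, 3.73 and 4.04 CPM in aged libraries and 9.07, 9.31 and 9.23 CPM in young libraries, which came to 112 to 208 counts per aged library and 245 to 252 counts per young library. Every aged library was below every young library by a wide margin, and the young libraries hardly differed. The means were 3.65 ± 0.435 CPM in aged cells and 9.20 ± 0.122 CPM in young cells, a log2 fold change of −1.33 (95% confidence interval −1.61 to −1.04, SE 0.13, adjusted p = 1.87e-05 by edgeR). The snoRNA gene SNR66 lies 163 nt away on the same strand and was at 5.34 ± 0.811 CPM in aged cells and 12.3 ± 2.33 CPM in young cells (log2 fold change −1.20, adjusted p = 1.28e-04 by edgeR). The protein gene SSN8, 295 nt away on the opposite strand, was higher (log2 fold change 0.32, adjusted p = 0.0333 by edgeR).

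RNase P and RNase MRP share most of their proteins. Of 11 genes for them, 7 fell, 1 rose and 3 were not called, with a median log2 fold change of −0.72. The median was −0.43 when a curve on gene length was removed, and with total counts only 5 fell and 4 rose. POP6, whose product is in both enzymes, was at 26.2 ± 0.88 CPM in aged cells and 55.7 ± 8.5 CPM in young cells (log2 fold change −1.09, adjusted p = 2.00e-05 by edgeR). SNM1 and RMP1, which encode proteins of RNase MRP alone, had log2 fold changes of −1.11 (adjusted p = 5.42e-05 by edgeR) and −0.43 (adjusted p = 0.00327 by edgeR). RPR2, a protein of RNase P alone, was the 1 gene that rose, at 16.1 ± 0.126 CPM in aged cells and 11.0 ± 1.37 CPM in young cells (log2 fold change 0.56, adjusted p = 0.00103 by edgeR). SNM1 and RMP1 lie outside the rule for named genes and were chosen after their values were seen, as the counterparts of RPR2 in RNase MRP.

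Of the 5 spliceosomal RNAs, 1 rose (U1), 3 fell (U4, U5 and U6) and U2 was not called. SNR19 (U1, chrXIV:230105-230672, minus strand, 568 nt) stood at 4.20, 3.79 and 3.63 CPM in aged libraries and 2.78, 1.90 and 1.76 CPM in young libraries. All aged libraries were above all young libraries, and the first library of each group was the highest. U1 rose 1.80-fold, with means of 3.87 ± 0.292 CPM in aged cells and 2.14 ± 0.552 CPM in young cells (log2 fold change 0.85, 95% confidence interval 0.42 to 1.28, SE 0.19, adjusted p = 0.00335 by edgeR). Within batches the log2 ratios were 0.60, 1.00 and 1.05.

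LSR1 (U2, chrII:680688-681862, minus strand, 1175 nt) is far longer in yeast than its counterpart in animals. It was at 14.0, 12.7 and 10.1 CPM in aged libraries and 12.4, 10.5 and 10.3 CPM in young libraries. The groups overlapped, the lowest library of all being an aged one. The log2 fold change was 0.15 (95% confidence interval −0.15 to 0.45, SE 0.14, adjusted p = 0.355 by edgeR).

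SNR14 (U4, 160 nt) was at 5.05, 5.84 and 5.28 CPM in aged libraries and 8.44, 11.0 and 10.4 CPM in young libraries, with no overlap. Its means of 5.39 ± 0.407 CPM in aged cells and 9.94 ± 1.33 CPM in young cells gave a log2 fold change of −0.88 (95% confidence interval −1.18 to −0.59, SE 0.13, adjusted p = 2.50e-04 by edgeR). U6, its partner in the base pairing shown above, had the same direction. SNR6 (U6, 112 nt), the polymerase III transcript of the catalytic core, was at 0.539, 0.409 and 0.505 CPM in aged libraries and 1.18, 1.27 and 0.842 CPM in young libraries. These were only 18.5 to 25.8 counts per aged library and 23.0 to 34.0 counts per young library, the lowest of the 9, and no aged library reached the lowest young one on the CPM scale. The log2 fold change was −1.18 with a correspondingly wide interval (95% confidence interval −1.82 to −0.54, SE 0.29, adjusted p = 0.00474 by edgeR). The protein gene next to SNR6 on the opposite strand, YLR108C, 320 nt away, was at 18.2 ± 0.856 CPM in aged cells and 108 ± 11.5 CPM in young cells (log2 fold change −2.58, adjusted p = 1.45e-08 by edgeR). REX3, 904 nt away on the same strand, was not called (0.10). Beside SCR1 and SNR19, which rose, YER137C had −1.02 and SSU72 −1.23. PET54 had −0.89 beside SNR7, and SEC3 had 0.026 and TMA20 −0.45 beside SNR14. Whether members and their neighbours change together was not tested.

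SNR7 (U5, chrVII:939459-939672, minus strand, 214 nt in the long form and 179 nt in the short form) was counted in both rows almost alike. The long-form row exceeded the short-form row by 0, 1 and 1 counts in aged libraries and by 0, 0 and 4 counts in young libraries, so the rows share their reads, and the forms could not be separated. Summed over both rows, U5 was at 4.82, 3.43 and 3.45 CPM in aged libraries and 6.66, 8.64 and 6.52 CPM in young libraries. Aged and young libraries did not overlap. The long-form row fell by 0.91 on the log2 scale (95% confidence interval −1.35 to −0.47, SE 0.20, adjusted p = 0.00244 by edgeR), and the short-form row, fitted on the same reads, also had −0.91.

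Genes for the protein rings of the snRNPs were lower with TMM scaling. All 14 genes of the Sm ring, which binds U1, U2, U4 and U5, and of the Lsm ring, which binds U6, were lower in aged cells, with log2 fold changes of −1.40 to −0.46 and a median of −1.09. SMD1, with the lowest adjusted p-value, was at 62.6 ± 6.47 CPM in aged cells and 163 ± 25.4 CPM in young cells (log2 fold change −1.38, SE 0.12, adjusted p = 9.06e-06 by edgeR). With total counts as the only scaling 10 of the 14 were called lower, with a median of −0.56, and with TMM on snoRNA rows 11 were lower. These genes are short, with coding lengths of 234 to 591 nt, and with the length offset described further on 13 of them were called lower (median −0.75).

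Genes for proteins of single particles were mixed. In the U1 list 3 of 10 rose and 4 fell, and the lowest adjusted p-values were those of SNU71 among the rises (28.7 CPM in aged cells, 22.1 CPM in young cells, log2 fold change 0.38, adjusted p = 0.00147 by edgeR) and PRP42 among the falls (65.6 ± 3.08 CPM in aged cells, 113 ± 4.97 CPM in young cells, log2 fold change −0.78, adjusted p = 1.20e-05 by edgeR). In the U2 list 6 of 11 fell and 5 were not called. PRP21, of the SF3a complex that helps U2 onto the branch site, had the lowest adjusted p-value there (log2 fold change −0.89, adjusted p = 2.29e-05 by edgeR). In the list of the U4/U6.U5 particle 3 of 14 rose and 6 fell. There SNU114, a GTPase of the U5 particle, had a log2 fold change of 0.52 (adjusted p = 0.00114 by edgeR), and PRP38, needed for activation of the spliceosome, had −1.15 (adjusted p = 1.81e-05 by edgeR).

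The genes around telomerase were followed although TLC1 itself was not analysed here. Of 8, 2 rose and 4 fell. CDC13, whose product binds the single-stranded telomere end and recruits telomerase, was at 11.5 ± 1.37 CPM in aged cells and 6.28 ± 1.16 CPM in young cells (log2 fold change 0.88, SE 0.15, adjusted p = 6.01e-04 by edgeR). EST3, a telomerase subunit, was at 22.9 ± 1.76 CPM in aged cells and 33.4 ± 3.91 CPM in young cells (log2 fold change −0.54, adjusted p = 8.08e-04 by edgeR).

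Among 15 genes that mature these RNAs or send them to the exosome, 4 rose and 6 fell. NRD1, which binds short noncoding transcripts and ends their transcription, was at 50.7 ± 3.49 CPM in aged cells and 30.5 ± 0.712 CPM in young cells (log2 fold change 0.73, adjusted p = 2.47e-05 by edgeR). LHP1, the La protein that protects the 3′ ends of new polymerase III transcripts, was at 315 ± 22.9 CPM in aged cells and 499 ± 41.0 CPM in young cells (log2 fold change −0.66, adjusted p = 1.70e-04 by edgeR). Of 9 genes for polymerase III factors, 1 rose (TFC3, log2 fold change 0.48, adjusted p = 0.0154 by edgeR) and 3 fell. Of these TFC8 had the lowest adjusted p-value (log2 fold change −0.44, adjusted p = 5.96e-04 by edgeR), and its log2 fold change was 0.083 with total counts only. Of the members made by polymerase III, SCR1 was higher, RPR1 was not called and SNR6 was lower. Over the 9 partner lists 15 of 100 genes rose, 55 fell and 30 were not called, with a median log2 fold change of −0.31.

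The medians of the telomerase, U2, U4/U6.U5, maturation and polymerase III lists were −0.22, −0.29, −0.10, −0.078 and −0.041, but turned positive with total counts only, at 0.29, 0.23, 0.42, 0.44 and 0.47, and with scaling on snoRNA rows. In the U1 list, 7 genes were then higher and 2 lower with total counts only, and 5 higher and 2 lower with scaling on snoRNA rows. Total counts only shifted all features, whose median was then 0.54. The medians of the signal recognition particle, RNase P and MRP, and Sm and Lsm lists kept a negative sign with total counts only, at −0.11, −0.21 and −0.56.

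**Figure D2:**
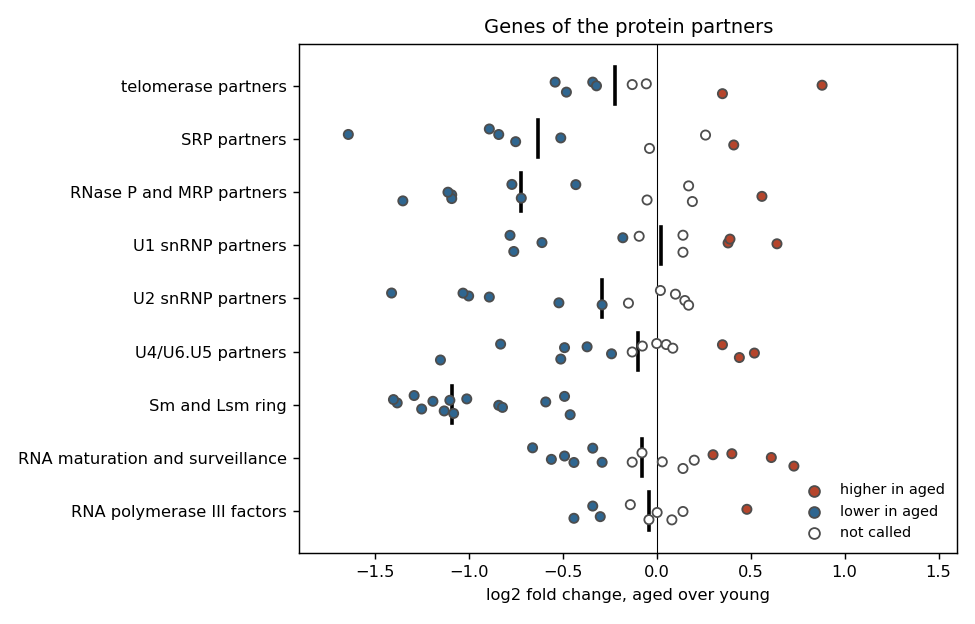
Log2 fold change, aged over young, of each gene in the 9 partner lists (points; red higher, blue lower, white not called by edgeR; vertical scatter within a list has no meaning) and the median of each list (black bars), with TMM scaling. All 14 Sm and Lsm genes lie between −1.40 and −0.46; the medians of the telomerase, U2, U4/U6.U5, maturation and polymerase III lists turn positive when libraries are scaled by total counts only.

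ICR1 (chrIX:393884-397082, minus strand, 3199 nt) was the longest of the RNAs and had the smallest SE of its log2 fold change. It was at 7.91, 7.68 and 7.92 CPM in aged libraries and 5.15, 4.81 and 5.20 CPM in young libraries, without overlap. ICR1 rose 1.55-fold, with means of 7.84 ± 0.136 CPM in aged cells and 5.05 ± 0.214 CPM in young cells (log2 fold change 0.63, 95% confidence interval 0.38 to 0.88, SE 0.11, adjusted p = 7.37e-04 by edgeR). Transcription of ICR1 across the FLO11 promoter is known to hold FLO11 down, and the opposite-strand transcript PWR1 to interfere with ICR1.

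FLO11, a cell-surface flocculin gene that starts 208 nt beyond the ICR1 annotation on the same strand, was higher as well. It was at 8.79, 7.00 and 7.18 CPM in aged libraries and 3.44, 3.39 and 3.51 CPM in young libraries, a log2 fold change of 1.15 (SE 0.14, adjusted p = 7.06e-05 by edgeR). PWR1, which overlaps ICR1 by 941 nt, was at 1.27 ± 0.0998 CPM in aged cells and 0.703 ± 0.043 CPM in young cells (log2 fold change 0.85, adjusted p = 0.01 by edgeR). SFL1, which encodes a repressor of FLO11, was at 16.9 CPM in aged cells and 13.8 CPM in young cells, and was not called (log2 fold change 0.29, adjusted p = 0.0686 by edgeR), a call that depended on the settings. It was called with the batch number as a replicate block (log2 fold change 0.29, adjusted p = 0.012 by edgeR), with total counts only (0.80), with TMM on snoRNA rows (0.65), without aged replicate 2 (0.39) and without young replicate 1 (0.34), and had 0.18 without young replicate 2, where it was not called. FLO8, the activator, was not analysed here. Both strands of this locus were thus higher in aged cells, but the strand setting of the counting is not given in the sources used here, and reads of ICR1 and PWR1, or of ICR1 and the open reading frame YIR020C within it, may have been shared.

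Levels of different RNAs were compared per kilobase of annotated length, for SNR7 as the sum of both rows over the length of the long form. In aged cells the order was SCR1 (67.0 CPM per kb), RPR1 (35.3), SNR14 (33.7), SNR7 (18.2), NME1 (10.7), LSR1 (10.5), SNR19 (6.82), SNR6 (4.32) and ICR1 (2.45), all in mean CPM per kb. The libraries of RPR1 and SNR14 overlapped, as did those of NME1 and LSR1, so these neighbours were not separated. In young cells SNR14 led with 62.1 CPM per kb, ahead of SCR1 (43.9), RPR1 (34.3), SNR7 (34.0), NME1 (27.1), SNR6 (9.80), LSR1 (9.40), SNR19 (3.78) and ICR1 (1.58). There SCR1 overlapped RPR1, RPR1 overlapped SNR7, and SNR6 overlapped LSR1. The median of 5894 protein-coding genes was 32.5 CPM per kb in aged cells and 31.4 CPM per kb in young cells. SCR1 lay above 68.5% of protein-coding genes in aged cells and 59.5% in young cells, NME1 above 17.7% in aged cells and 45.8% in young cells, and ICR1 above 2.54% in aged cells and 2.85% in young cells.

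Annotated length was set beside the changes. The 4 RNAs that fell were 112 to 340 nt long, and the 3 that rose were 522, 568 and 3199 nt long, with RPR1 at 369 nt and LSR1 at 1175 nt not called. Short features were lower in aged cells across the table: the median log2 fold change was −0.30 for 479 features over 200 and up to 400 nt, of which 18.4% were higher and 47.4% lower, and 0.13 for 534 features over 3000 nt, of which 40.6% were higher and 19.9% lower. The 534 features over 400 and up to 600 nt, the range of SCR1 and SNR19, had a median of −0.29. Of them 20% were higher and 52.6% lower, and 524 were protein-coding genes, for which the length is the coding length. Protein-coding genes over 200 and up to 400 nt had a median of −0.28. A smooth curve of each library on length was removed as an alternative chosen after seeing the data. NME1 then had −0.99, SNR14 −0.49, SNR6 −0.76 and SNR7 −0.54, and SCR1 had 0.84, SNR19 1.06 and ICR1 0.54, all called by edgeR. RPR1 then had 0.36 and was called higher (adjusted p = 0.0259 by edgeR). With that curve and the replicate block together, SNR6 was no longer called (log2 fold change −0.75, adjusted p = 0.0624 by edgeR).

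**Figure D3:**
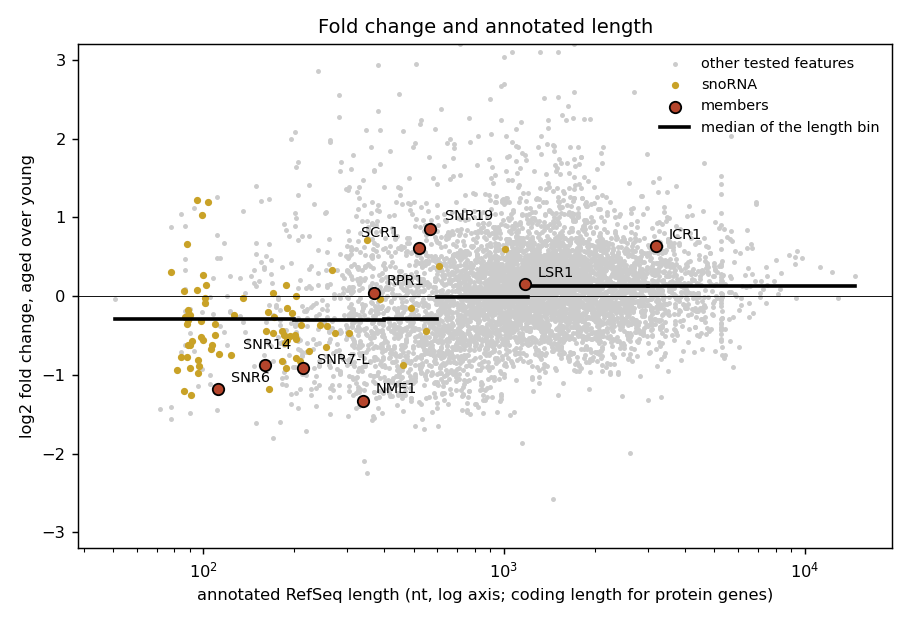
Log2 fold change, aged over young (vertical axis), against annotated length in nt (log axis) for tested features (grey), snoRNAs (yellow) and the members (red, named), with the median of each length bin (black lines). Features up to 600 nt have medians of −0.29 and −0.30 and those over 1200 nt of 0.13, and 23 features lie outside the vertical range of ±3.2.

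Other RNA classes that mostly lack poly(A) tails in their mature form were measured beside the members. Of 76 snoRNA rows 7 were higher and 33 lower in aged cells, with a median log2 fold change of −0.44 which was 0.085 with total counts only and −0.049 with the length offset, and with a summed level of 623 ± 48.8 CPM in aged libraries and 775 ± 104 CPM in young libraries. Of 275 nuclear tRNA rows 106 passed the filter, of which 1 was higher and 71 lower, and the sum was 104 ± 10.9 CPM in aged libraries and 234 ± 44.6 CPM in young libraries. Of 22 rows of the nuclear ribosomal DNA 12 passed the filter, and these 12 were higher (median log2 fold change 3.03). Their class had a sum of 590 ± 73.1 CPM in aged libraries and 20.1 ± 4.70 CPM in young libraries. The filter could keep a row counted in 1 group only, so these numbers depended on it. Unfiltered, 15 of 19 ribosomal DNA rows were higher and 0 lower (median 2.41), and 95 of 271 tRNA rows were lower and 2 higher. When no library could fall below 10 counts, 8 of 8 ribosomal DNA rows were higher (median 1.29). Of 65 tRNA rows, 53 were then lower and 0 higher. With TMM scaling the aged and young sums of each class did not overlap (exact permutation test, two-sided, p = 0.1, which is as low as 3 against 3 libraries can give). The sums of protein-coding genes did not overlap either, at 803399 ± 31545 CPM in aged libraries and 1150017 ± 94068 CPM in young libraries. A lower sum with TMM scaling was thus not particular to snoRNA and tRNA rows. Sums with total counts only were not taken. The members' sum with TMM scaling, given above, did overlap. The part of length, of other RNA classes and of tail selection in the members' changes was not tested.

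Scaling changed how many members were called in each direction. With total counts only, 5 were higher and 2 lower, since LSR1 (log2 fold change 0.66, adjusted p = 0.0015 by edgeR) and RPR1 (0.56, adjusted p = 0.00325 by edgeR) were then called and SNR6 (−0.66, adjusted p = 0.0644 by edgeR) and SNR7 (−0.39, adjusted p = 0.0877 by edgeR) were not. No member that was called changed sign. Relative to the shifted median of 0.54, NME1 had −1.35, SNR14 −0.90 and SNR6 −1.20, and SNR19 had 0.82, ICR1 0.61 and SCR1 0.58. A change of scaling shifts all features by nearly the same amount. Taking off the median therefore returns the values near those with TMM scaling by construction, and is no separate check.

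**Figure D4:**
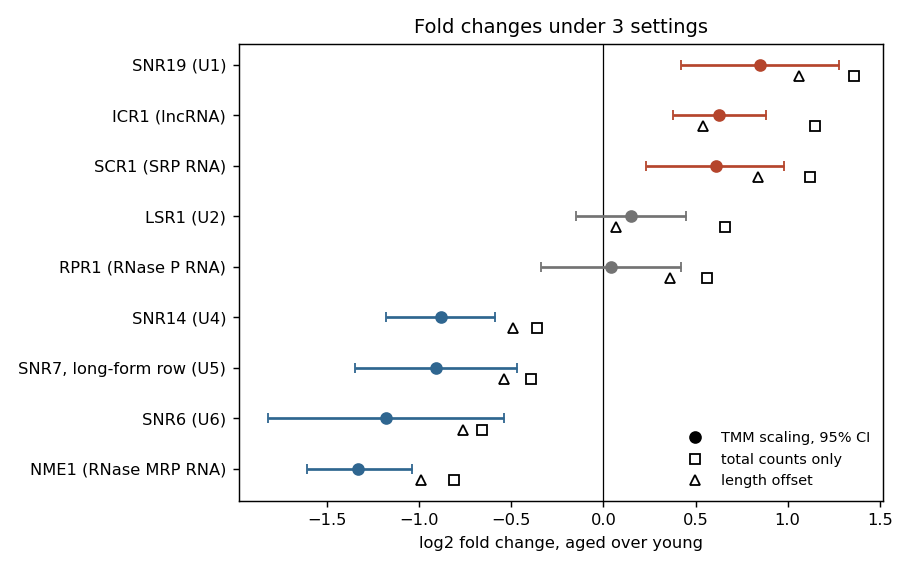
Log2 fold change, aged over young (horizontal axis), of the 9 RNAs with TMM scaling (filled circles with 95% confidence intervals; red higher, blue lower, grey not called), with total counts only (open squares) and with the length offset (open triangles). RPR1 has 0.043, 0.56 and 0.36 under these 3 settings and NME1 has −1.33, −0.81 and −0.99.

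For each RNA the feature with the most similar profile over the 6 libraries was looked up among 5438 features with a mean of at least 10 CPM, by Pearson's r of log2 CPM. The 6 libraries share their group and batch structure, so r is high for very many features and is given as a description. SNR14 was nearest to YKL069W (r = 0.9995) and ICR1 to ATG42 (r = 0.9993). NME1 was nearest to STI1, which encodes a co-chaperone (r = 0.9985), and SNR19 to TOK1, a potassium channel gene (r = 0.9985). SNR6 was nearest to DIP5 (r = 0.9951) and SNR7 to UME6 (r = 0.9936). A high r does not mean a change of the same size. The log2 fold change was −0.31 for DIP5 against −1.18 for SNR6, and −0.45 for UME6 against −0.91 for SNR7. It was 0.43 for TOK1 against 0.85 for SNR19, and nearer for ATG42, with 0.52 against 0.63 for ICR1. SCR1 was nearest to the mitochondrial AI1 (r = 0.9814), RPR1 to FMP10 (r = 0.9814) and LSR1 to ULP2 (r = 0.9638). The number of features with r over 0.95 ran from 2 for LSR1 and 5 for RPR1 to 841 for ICR1 and 1068 for SNR14.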

How the data were processed

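Poly(A)-selected RNA was sequenced as paired reads from a directional kit. The authors deposited 1 table of estimated counts per feature for the 6 libraries, not normalized, in which 54.3% to 59.5% of values are not whole numbers. The submitters' processing notes name bcl2fastq, cutadapt 2.6, STAR 2.7.6a, featureCounts (Subread 1.6.2) and build R64. How multiply mapped reads were shared, the strand setting and the annotation are not given in the sources used here. Columns were matched to samples by library name, and 0 per-sample columns were left unassigned. Of 7127 identifiers, 6169 (86.6%) matched RefSeq R64, which gave positions, lengths and sequences.

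Expected counts were rounded and filtered with filterByExpr (minimum count 10), which left 6755 features. Libraries were scaled by TMM, with factors of 1.21, 1.15 and 1.24 in aged and 0.896, 0.765 and 0.854 in young libraries. Groups were compared with edgeR 4.0.16 (limma 3.58.1, R 4.3.3) by a two-sided quasi-likelihood F-test, and p-values were adjusted over all tested features (Benjamini-Hochberg, threshold 0.05). SEs came from the F statistic and 95% intervals used t quantiles at its moderated degrees of freedom. CPM are scaled by TMM. The common biological coefficient of variation was 0.0873. Pairs of replicates differed by more than sampling noise (chi-square per degree of freedom 13.2 to 105), so none was counted as a copy of another. P-values measure the spread between these biological replicates. Reads carried no molecular identifiers, so counts are not independent molecules.

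The label batch number is shared by 1 aged and 1 young library. Deviations from the group means had r = 0.126, 0.334 and 0.122 between libraries of the same number, and libraries of different numbers were not compared. The main fit used the group only, so its p-values, SEs and intervals are unpaired. A fit with the number as a block was an alternative, reported where it changed a call. By edgeR, the adjusted p was 0.00925 without the block and 2.46e-06 with it for SCR1, and 0.838 and 0.753 for RPR1.

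Named were all members, for each partner list the gene called higher and the gene called lower with the smallest adjusted p-value, the ICR1 locus genes and the most similar feature of each member. SNM1, RMP1 and the neighbours given for members other than ICR1 lie outside this rule. Members and lists were chosen with earlier results of these data known. Alternatives were DESeq2 size factors, total counts only, TMM on protein-coding or snoRNA rows, 2 other filters, DESeq2 1.42.0, limma-voom, a replicate block and leaving out each library. Chosen after seeing the data were summed SNR7 rows, unrounded counts and a lowess offset on length (span 0.5), also with the block. Tested on simulated data of 6730 features, the fit called 97.0% of log2 changes of 1, 80.0% of changes of 0.5 and 0.0613% of unchanged features. These rates describe the simulated features only. Whether they apply to the real libraries, where 32.7% of tested features were called higher and 30.8% lower, was not tested.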

Additional observations from a re-analysis of the deposited data

How the results depend on the processing

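Scaling moved the counts of calls most. With total counts only, 5 members were higher and 2 lower (3 and 4 with TMM), 46 partner genes were higher and 27 lower (15 and 55 with TMM), and 4639 features were higher and 562 lower (2207 and 2081 with TMM). With TMM on snoRNA rows, 5 members were higher, 34 partner genes were higher and 30 lower, and 3558 features were higher and 725 lower. LSR1 and RPR1 were called higher under both. The medians of all features were then 0.54 and 0.39. TFC8 reversed with total counts only (log2 fold change 0.083). RPR1, not called with TMM, had log2 fold changes of −0.15 without aged replicate 2, −0.051 without young replicate 1, −0.04 without young replicate 3 and up to 0.22 without young replicate 2. Leaving out each library gave 3 members higher and 4 lower each time, 12 to 22 partner genes higher and 50 to 56 lower, and 1809 to 2317 features higher and 1760 to 2206 lower. With the replicate block, 3 members were higher and 4 lower, 18 partner genes were higher and 55 lower, and 2352 features were higher and 2187 lower. Among the members and the genes named by rule from the partner lists and the ICR1 locus, the block changed the call of SFL1 only. With the length offset it also ended that of SNR6. Over 19 alternatives, 159 member fits kept direction and call, 6 gained a call, 3 lost it and 3 reversed. For 19 genes named by rule from the partner lists and the ICR1 locus these counts were 351, 5, 4 and 1. The 5 gained calls were all those of SFL1 of the ICR1 locus. The 4 lost calls were those of EST3, LHP1 and TFC8 under the scalings above. The causes of these changes were not tested. Depth limits SNR6 most, with 18.5 to 34.0 counts per library.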
